A study of Arabidopsis thaliana with 4 samples.

Results

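The libraries numbered 2 were set against the libraries numbered 1 in a transcriptome series on otp90, a knock-out line of Arabidopsis thaliana. Each number holds 1 library of each genotype, so 2 libraries stood on a side and 4 of the series' 4 libraries entered the comparison. Membership came from the number in the library titles alone, and genotype was a term in the fit, so the difference between otp90 and Col-0 is not described here. The labels name no difference in treatment, time or handling between the numbers, and the comparison was taken up after earlier results had shown that the numbers differ.

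Number 2 comprised 1 library from otp90 (knock-out line SM_3_29659) and 1 from the wild type Col-0, and number 1 comprised another of each. Per the labels' protocols, the 4 libraries shared the same source: aerial organs at Boyes stage 1.09 of untreated plants, grown on soil at 18 to 21 °C under light of up to 90 µE. RNA was extracted with Trizol, depleted of rRNA and read single-end, in stranded libraries sized at 230 bp, on the Ion Proton. Nothing in the labels states that plants differed between libraries of the same genotype. Each number had 1 library of a genotype, so spread between like libraries could not be measured. The p-values rest on how far the ratio of number 2 to number 1 differed between the genotypes, with spread estimated across genes. Technical and biological parts of that spread cannot be told apart. The targeted gene was not analysed here, as the annotation used names no locus OTP90.

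Counted reads were 1841972 and 1828745 in the number 2 libraries of otp90 and Col-0, and lay between the 1489112 of otp90 number 1 and the 2685718 of Col-0 number 1. The 15 rRNA gene models, which took 4.96 to 7.69% of the counts, were left out. Levels are given as CPM, counts relative to library size, scaled by the trimmed mean of M-values, in the order otp90, then Col-0 within a number. All 5 leaf markers were counted in the 4 libraries, at 6381 to 11787 CPM for the rubisco activase RCA and 3196 to 5321 CPM for the photosystem II subunit PSBO1. The others varied more between libraries, at 574 to 4105 CPM for the rubisco small subunit RBCS1A, 379 to 4727 CPM for the antenna gene LHCB3 and 103 to 459 CPM for the catalase CAT2. The 6 root markers summed to 112 and 43.5 CPM before scaling in number 2 and to 34.9 and 33.6 in number 1. The root marker PYK10, a beta-glucosidase, had 91.6 and 31.1 CPM in the number 2 libraries, against 24.9 and 17.7 CPM in the number 1 libraries (log2 1.35, SE 0.50, adjusted p = 0.374), so it did not pass the test. SCR, the other of the 2 root markers with enough counts to be tested, had 16.5 and 3.27 CPM in the number 2 libraries. In the number 1 libraries it had 4.16 and 9.85 CPM, and the libraries overlapped (log2 0.18). Most of the root marker sum in otp90 number 2 came from PYK10. The part of root material in the results was not tested. The 6 flower markers summed to 11.6 to 17.7 and the 4 seed markers to 2.18 to 8.79 CPM before scaling.

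Leaves fix carbon in the light, store part of it as starch and draw on that starch in darkness. When sugars run short, the kinase SnRK1 and a group of bZIP factors switch on genes for amino acid and sugar recycling, and sugars repress the same genes. The circadian clock orders many of these genes over the day through interlocked loops of morning, day and evening regulators, and genes of the light-harvesting antenna follow light, the clock and sugar together. Touch, wounding and cold are known to raise another set of short-lived transcripts quickly.

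Of 11938 genes tested, 96 (0.804%) differed between the numbers at an adjusted p under 0.05 in edgeR's quasi-likelihood test. In number 2, 92 genes (0.771%) were lower and 4 (0.0335%) were higher. All 96 were nuclear genes. At an unadjusted p under 0.05 there were 607 lower and 439 higher genes, and the median log2 fold change of all genes tested was 0.025. The median among the 92 lower genes was -3.64, the smallest fall among them was -2.27, and 85 of them were at least 4-fold lower in number 2 in each genotype on the log2 scale with a prior count of 2. The fall was larger in the otp90 pair for 45 of the 92 and larger in the Col-0 pair for 47. For all 96 called genes the number 2 libraries did not overlap the number 1 libraries. Over all genes, both number 2 libraries lay below both number 1 libraries for 2448 (20.5%) and above them for 2508 (21%). In fits with no genotype term, leaving out otp90 number 1 gave 248 lower and 263 higher genes, so the excess of lower genes was gone, and leaving out otp90 number 2 gave 149 lower and 29 higher. Leaving out Col-0 number 1 gave 175 lower and 32 higher genes, and leaving out Col-0 number 2 gave 155 lower and 54 higher. Of the 96 calls, 82 stood in each of these 4 fits. Limma voom lost 33 of the 96, the fit of nuclear genes only lost 23, and DESeq2 lost 6 and gave 2 no adjusted p. The median of all genes tested lay between -0.057 and 0.087 in the fits without single libraries.

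**Figure D1:**
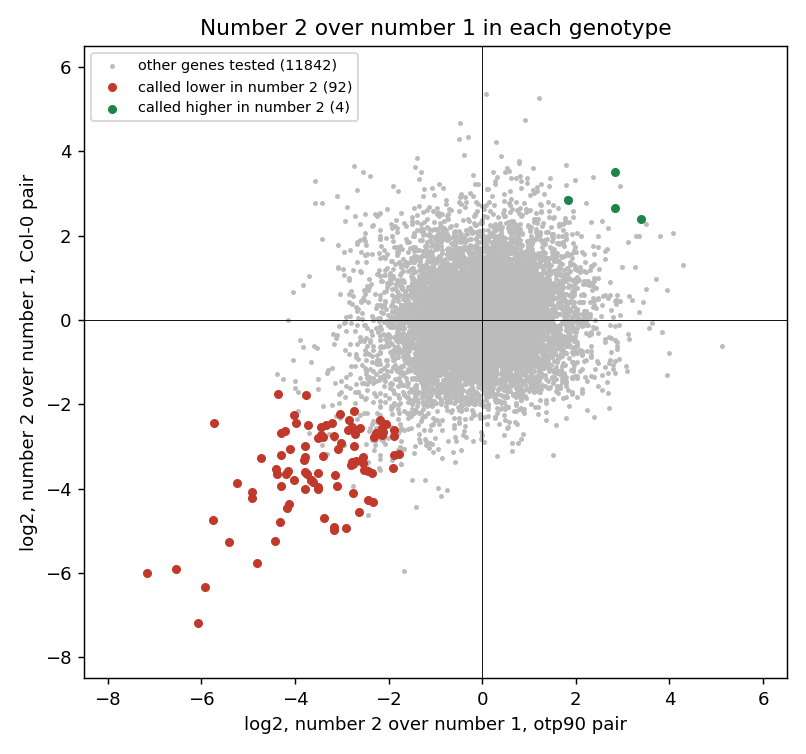
Each point is one of 11938 genes, at its log2 ratio of number 2 over number 1 in the otp90 pair (x axis) and in the Col-0 pair (y axis), with a prior count of 2. The 92 genes called lower (red) lie in the lower left and the 4 called higher (green) in the upper right, while the other genes (grey) form a cloud around 0.

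The otp90 pair and the Col-0 pair share no library. Across the 11938 genes their log2 ratios had a Pearson correlation of 0.22 and a Spearman correlation of 0.144, given as a description since genes are not independent replicates, and 54.7% of genes had the same sign. In the otp90 pair 409 genes were at least 4-fold lower in number 2, and in the Col-0 pair 322. The 133 genes lower in both were 32.5% of the first set and 41.3% of the second. Over all genes tested, 2.70% were at least 4-fold lower in the Col-0 pair and 3.43% in the otp90 pair. In the upward direction 208 genes of the otp90 pair and 346 of the Col-0 pair were at least 4-fold higher, and the 12 shared genes were 5.77% and 3.47% of these sets. Over all genes tested, 2.90% were at least 4-fold higher in the Col-0 pair and 1.74% in the otp90 pair. The plot of both pairs shows this as a tail of points toward the lower left.

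Genes of dark and sugar starvation were among the largest falls. Of 29 members 23 had enough counts to be tested. Of these 11 fell and 0 rose at the adjusted threshold, and 22 had a negative log2 fold change. Over all genes tested 0.771% fell. In 22 (95.7%) both number 2 libraries lay below both number 1 libraries, against 20.5% of all genes tested. The median of the 23 was -2.27, against 0.025 over all genes tested. It was -2.61 in the otp90 pair and -2.44 in the Col-0 pair.

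ASN1, the asparagine synthetase that stores nitrogen in starved and darkened leaves, was counted once in otp90 number 2 and 2 times in Col-0 number 2. Its level was 0.569 CPM in otp90 number 2 and 1.09 CPM in Col-0 number 2, against 101 CPM in otp90 number 1 and 178 CPM in Col-0 number 1. The number 2 libraries were thus near 0 and the number 1 libraries high in both genotypes (log2 -7.28, SE 0.68, adjusted p = 0.000126). Over the summed counts ASN1 was 165 times lower in number 2, with an exact 95% counting interval of 56.3 to 805. SEN1, a marker of darkened and ageing leaves, had 0 and 1.09 CPM in the number 2 libraries, against 29.9 and 118 CPM in the number 1 libraries (log2 -6.96, SE 0.78, adjusted p = 0.000393), and was 145 times lower in number 2, with an exact 95% counting interval of 39.9 to 1203.

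DRM2, a dormancy-associated gene repressed by sugar, had 7.96 and 25.7 CPM in the number 2 libraries, against 160.4 and 321 CPM in the number 1 libraries (log2 -3.95, SE 0.51, adjusted p = 0.00114). DIN10, a raffinose synthase family gene induced in the dark, had 25.6 and 44.2 CPM in the number 2 libraries, against 490.4 and 281 CPM in the number 1 libraries (log2 -3.45, SE 0.54, adjusted p = 0.0046). In both genes the lowest number 1 library was several times above the highest number 2 library. AKINBETA1, a beta subunit of the SnRK1 kinase complex, had 2.84 and 3.27 CPM in the number 2 libraries, against 30.8 and 32.0 CPM in the number 1 libraries (log2 -3.33, SE 0.67, adjusted p = 0.0272), a call lost in voom.

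BT2, a BTB and TAZ domain protein that responds to sugar and nitrate, had 80.8 and 91.1 CPM in the number 2 libraries, against 667 and 430.2 CPM in the number 1 libraries (log2 -2.64, SE 0.48, adjusted p = 0.0134). KMD4, an F-box protein that marks cytokinin response regulators for degradation, had 139 and 108 CPM in the number 2 libraries, against 579 and 600.2 CPM in the number 1 libraries (log2 -2.27, SE 0.46, adjusted p = 0.031). The call of KMD4 was lost without Col-0 number 2 and with nuclear genes only.

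By role, of 13 tested genes of sugar metabolism and sugar-repressed markers 10 passed the test as lower, with a median of -3.03. Of 10 tested genes grouped under amino acid and branched-chain catabolism ASN1 alone passed, and the median of the 10 was -1.69. In all 10 both number 2 libraries lay below both number 1 libraries, against 20.5% of all genes tested. The difference between these roles was not tested. Proline dehydrogenase ERD5 had 13.1 and 24.6 CPM in the number 2 libraries, against 51.5 and 100.2 CPM in the number 1 libraries, and its libraries did not overlap, but its adjusted p of 0.081 missed the threshold. The glutamate dehydrogenase GDH2 had 19.3 and 8.19 CPM in the number 2 libraries, against 29.9 and 54.2 CPM in the number 1 libraries (adjusted p = 0.356). DIN9 was the one member with a positive log2 fold change (0.80), and its libraries overlapped.

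**Figure D2:**
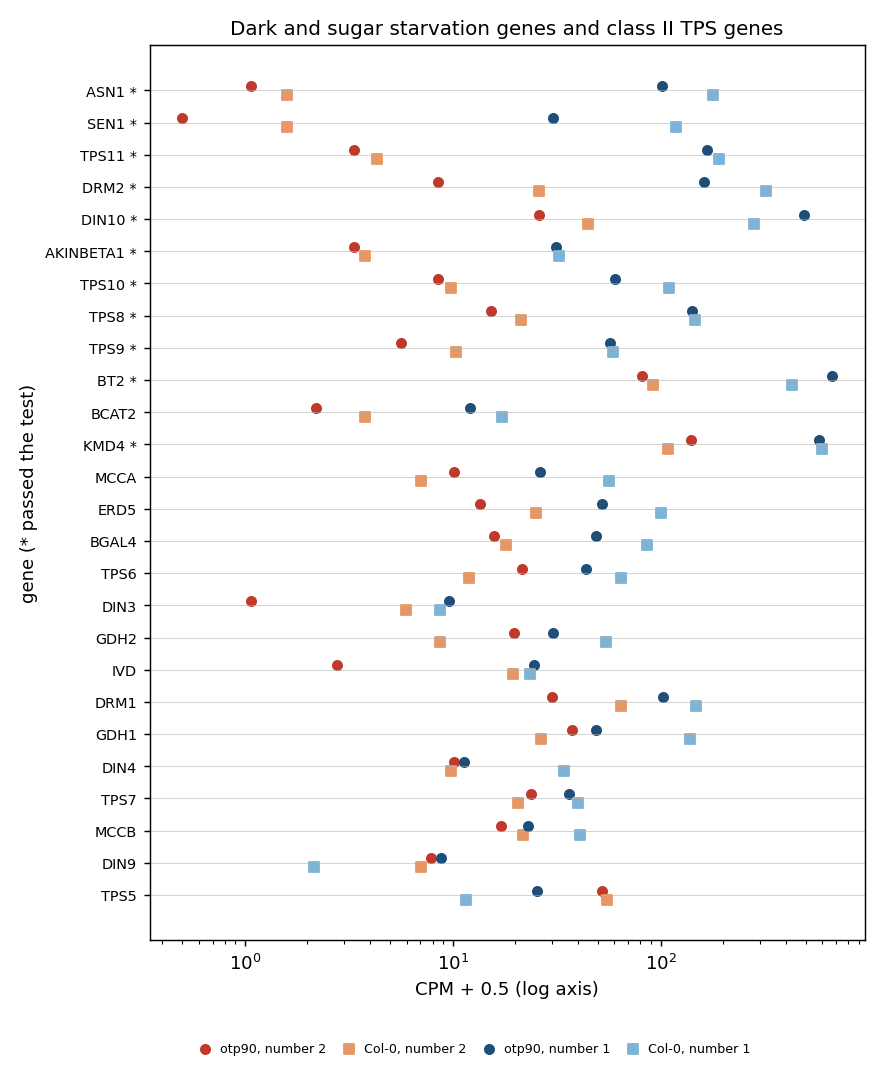
CPM plus 0.5 on a log axis in each library for the tested dark and sugar starvation genes and class II trehalose phosphate synthase genes, ordered by log2 fold change. Red and orange points are the number 2 libraries, dark and light blue points the number 1 libraries, circles otp90 and squares Col-0. The asterisk marks genes that passed the test, from ASN1 at the top to KMD4, and TPS5 at the bottom is the one gene whose number 2 libraries lie above both number 1 libraries.

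Class II trehalose phosphate synthases resemble the enzyme that makes trehalose 6-phosphate, a signal of sucrose status, and several are known to be induced when sugar is low. Of 7 members tested, 4 fell, 0 rose, and the median was -2.97. Over all genes tested 0.771% fell and the median was 0.025. In 6 members (85.7%) both number 2 libraries lay below both number 1 libraries and in 1 (14.3%) above them, against 20.5% and 21% of all genes tested. TPS11 had 2.84 and 3.82 CPM in the number 2 libraries, against 167 and 190.1 CPM in the number 1 libraries (log2 -5.72, SE 0.57, adjusted p = 0.000146). TPS10 had 7.96 and 9.28 CPM in the number 2 libraries, against 59.8 and 109.6 CPM in the number 1 libraries (log2 -3.24, SE 0.52, adjusted p = 0.00566). TPS8 had 14.8 and 20.7 CPM in the number 2 libraries, against 141 and 147 CPM in the number 1 libraries (log2 -3.03, SE 0.49, adjusted p = 0.00547), and TPS9 had 5.12 and 9.82 CPM in the number 2 libraries, against 56.5 and 58.3 CPM in the number 1 libraries (log2 -2.97, SE 0.55, adjusted p = 0.0142). In each of the 4 genes the higher number 2 library lay far below the lower number 1 library.

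The remaining 3 members did not pass. TPS6 had 21.04 and 11.5 CPM in the number 2 libraries, against 43.2 and 64.0 CPM in the number 1 libraries, and TPS7 had 23.3 and 20.2 CPM in the number 2 libraries, against 35.7 and 39.4 CPM in the number 1 libraries. TPS5 lay in the opposite direction, with 51.8 and 54.6 CPM in the number 2 libraries, against 24.9 and 11.1 CPM in the number 1 libraries (log2 1.67, SE 0.52, adjusted p = 0.24), and its libraries did not overlap. TPS8 to TPS11 are also members of the dark and sugar starvation list.

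Several of the largest falls belonged to genes outside the lists. AT3G24420, annotated as an alpha/beta-hydrolase, had no count in either number 2 library and log2 -8.55, SE 1.28, adjusted p = 0.00426; with a floor of 3 counts over the group it was at least 25.98-fold lower. DESeq2 did not call it (adjusted p = 0.854). TZF5, a tandem CCCH zinc finger protein (AT5G44260), and AT1G30250, an uncharacterised protein, also had no count in number 2, and were at least 14.0-fold lower and at least 15.2-fold lower. Leaving out otp90 number 1 ended the call of TZF5, and leaving out Col-0 number 1 that of AT1G30250. Voom called neither, and DESeq2 gave neither an adjusted p. All 3 were low in number 1 as well, at 9.03 to 32.4 CPM.

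AT2G20670, a DUF506 protein, had 0 and 1.09 CPM in the number 2 libraries, against 158 and 140.4 CPM in the number 1 libraries (log2 -7.91, SE 0.79, adjusted p = 0.000146), and was 238 times lower in number 2, with an exact 95% counting interval of 65.6 to 1973. AT3G15450, annotated as an aluminum induced protein with YGL and LRDR motifs, had 2.84 and 6.004 CPM in the number 2 libraries, against 365 and 429 CPM in the number 1 libraries (log2 -6.51, SE 0.59, adjusted p = 0.000126). AT4G36850, a PQ-loop repeat protein, had 0.569 and 1.09 CPM in the number 2 libraries, against 32.4 and 59.5 CPM in the number 1 libraries (log2 -5.68, SE 0.75, adjusted p = 0.00124), and was not called by voom. These 3 genes were low in number 2 and well counted in number 1 in both genotypes.

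Members of the same protein families recurred among the called genes; the families were picked after their values were seen. The KISS ME DEADLY F-box genes KMD1 to KMD4, known as negative regulators of cytokinin signalling, were tested and called lower in 4 of 4 cases, against 0.771% of all genes tested. KMD1 (AT1G80440) had 0.569 and 1.64 CPM in the number 2 libraries, against 88.9 and 72.7 CPM in the number 1 libraries (log2 -6.09, SE 0.69, adjusted p = 0.000393). KMD2 (AT1G15670) had 3.41 and 0.546 CPM in the number 2 libraries, against 23.3 and 30.8 CPM in the number 1 libraries, and KMD3 (AT2G44130) had 34.1 and 11.5 CPM in the number 2 libraries, against 204 and 131 CPM in the number 1 libraries. The call of KMD2 was lost in voom, with DESeq2 size factors and with nuclear genes only. Over all 37 tested genes annotated with a kelch repeat, 5 fell and the median was -0.12.

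Of 4 BTB and TAZ domain genes tested, BT1 and BT2 fell, while 0.771% of all genes tested fell. BT1 had 13.1 and 14.2 CPM in the number 2 libraries, against 93.1 and 67.7 CPM in the number 1 libraries (log2 -2.53, SE 0.50, adjusted p = 0.0234). BT4 had 26.7 and 20.7 CPM in the number 2 libraries, against 93.9 and 101 CPM in the number 1 libraries and BT5 had 1.14 and 4.37 CPM in the number 2 libraries, against 35.7 and 9.44 CPM in the number 1 libraries, with adjusted p-values of 0.0677 and 0.278. The AP2/B3 factors RAV1, RAV2 and TEM1, of which TEM1 and RAV2 (TEM2) are known to repress flowering, were all called lower. These 3 were grouped by hand after their values were seen, so they give no share for the wider AP2/B3 family. RAV1 had 8.53 and 6.004 CPM in the number 2 libraries, against 79.8 and 58.7 CPM in the number 1 libraries (log2 -3.24, SE 0.52, adjusted p = 0.00566), RAV2 had 6.82 and 3.82 CPM in the number 2 libraries, against 109 and 59.1 CPM in the number 1 libraries (log2 -3.96, SE 0.54, adjusted p = 0.00161), and TEM1 had 43.2 and 23.5 CPM in the number 2 libraries, against 302 and 142 CPM in the number 1 libraries (log2 -2.70, SE 0.46, adjusted p = 0.00971). AT4G27450, a second gene with YGL and LRDR motifs, had 0 and 8.19 CPM in the number 2 libraries, against 57.4 and 49.7 CPM in the number 1 libraries (log2 -3.97, SE 0.83, adjusted p = 0.0361), and AILP1, another such gene, had 79.6 and 82.4 CPM in the number 2 libraries, against 255 and 288 CPM in the number 1 libraries (adjusted p = 0.111). The call of AT4G27450 was lost in DESeq2, in voom, with nuclear genes only and without the genotype term. Of 5 tested genes with YGL and LRDR motifs 2 fell, and the median was -1.74. The remaining members AT3G22850 and AT5G43830 each had a log2 fold change of -0.26, with overlapping libraries.

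Antenna genes encode the chlorophyll-binding proteins that collect light for the photosystems. Of 20 tested, 9 fell, against 0.771% of all genes tested, 0 rose, and the median was -1.93. Of the 14 antenna genes of photosystem II 8 fell (median -2.95), and of the 6 of photosystem I 1 fell (median -0.59). In 16 of the 20 (80%) both number 2 libraries lay below both number 1 libraries, against 20.5% of all genes tested.

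LHCB1 and LHCB2 encode the trimeric major antenna of photosystem II. LHCB1.1 had 56.3 and 39.8 CPM in the number 2 libraries, against 3844 and 5928 CPM in the number 1 libraries (log2 -6.65, SE 0.63, adjusted p = 0.000126), and LHCB1.4 had 33.0 and 90.06 CPM in the number 2 libraries, against 715 and 1139 CPM in the number 1 libraries (log2 -4.04, SE 0.52, adjusted p = 0.00114). LHCB1.5 had 163 and 402 CPM in the number 2 libraries, against 2572 and 2195 CPM in the number 1 libraries (log2 -3.21, SE 0.56, adjusted p = 0.0101). LHCB1.2 had 556 and 496 CPM in the number 2 libraries, against 3268 and 4762 CPM in the number 1 libraries (log2 -2.91, SE 0.52, adjusted p = 0.0116), and LHCB1.3 had 4638 and 5937 CPM in the number 2 libraries, against 10523 and 10480.3 CPM in the number 1 libraries with an adjusted p of 0.619. Members of LHCB1 are near-identical, and reads that aligned equally well to 2 places were removed, so how reads divide among them is uncertain. Summed over the 5 LHCB1 genes, the level was 6205 ± 1074 CPM in number 2 and 22713 ± 2533 CPM in number 1 (SD, n = 2 each).

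LHCB2.1 had 76.2 and 93.9 CPM in the number 2 libraries, against 1416 and 1193 CPM in the number 1 libraries (log2 -3.94, SE 0.51, adjusted p = 0.00124). LHCB2.2 had 48.3 and 49.7 CPM in the number 2 libraries, against 967 and 773 CPM in the number 1 libraries (log2 -4.14, SE 0.51, adjusted p = 0.000922). LHCB2.3 had 3.41 and 12.01 CPM in the number 2 libraries, against 58.2 and 72.7 CPM in the number 1 libraries (log2 -3.21, SE 0.57, adjusted p = 0.0113). The 3 LHCB2 genes together had 142 ± 19.5 CPM in number 2 and 2239 ± 284 CPM in number 1 (SD, n = 2 each), a log2 ratio of the means of -3.98, while that of the LHCB1 sum was -1.87. LHCB3, which forms trimers with LHCB1 and LHCB2, had 473 and 379 CPM in the number 2 libraries, against 2416 and 4727 CPM in the number 1 libraries (log2 -2.997, SE 0.54, adjusted p = 0.0129).

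The minor antenna genes were closer together. LHCB5 had 1653 and 1721 CPM in the number 2 libraries, against 2781 and 3443 CPM in the number 1 libraries, and LHCB6 had 2551 and 1829.5 CPM in the number 2 libraries, against 3283 and 4448 CPM in the number 1 libraries, with adjusted p-values of 0.672 and 0.715. LHCB4.1 had 1801 and 2368 CPM in the number 2 libraries, against 2628 and 2929 CPM in the number 1 libraries (adjusted p = 0.897). LHCB4.2 had 196 and 216 CPM in the number 2 libraries, against 744 and 1015 CPM in the number 1 libraries and missed the threshold at an adjusted p of 0.0539. LHCB4.3 was lowest in a number 1 library, with 195 and 248 CPM in the number 2 libraries, against 202 and 49.3 CPM in the number 1 libraries, and its libraries overlapped.

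In the photosystem I antenna, LHCA4 had 402 and 300.2 CPM in the number 2 libraries, against 1503 and 3432 CPM in the number 1 libraries (log2 -2.71, SE 0.55, adjusted p = 0.0307). LHCA1, its partner in the antenna, had 681 and 647 CPM in the number 2 libraries, against 1734 and 2977 CPM in the number 1 libraries (adjusted p = 0.156), and LHCA2 had 1731 and 2044 CPM in the number 2 libraries, against 1962 and 2019 CPM in the number 1 libraries (adjusted p = 0.993). With nuclear genes alone in the fit, LHCB1.2, LHCB1.5, LHCB3 and LHCA4 had adjusted p-values of 0.0828, 0.0569, 0.0833 and 0.132, and were not called. Their log2 fold changes in that fit were -2.93, -3.23, -3.01 and -2.72, about as large as with all genes.

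**Figure D3:**
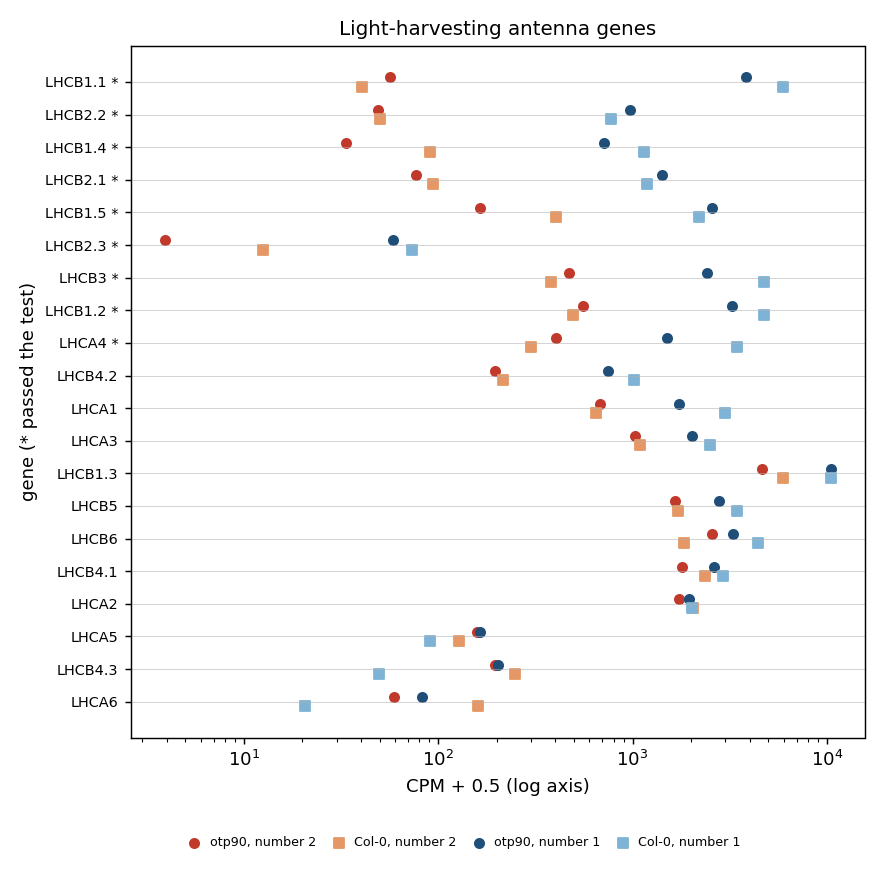
CPM plus 0.5 on a log axis in each library for the 20 tested antenna genes, ordered by log2 fold change, with number 2 in red and orange and number 1 in blue. Genes that passed the test carry an asterisk, and the gap between the numbers is widest for LHCB1.1 and closes toward LHCA2 and LHCA5.

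Of 30 nuclear genes of the photosystem cores and of electron transport tested, 0 passed in either direction in edgeR's quasi-likelihood test, with 1 at an unadjusted p under 0.05, and the median was -0.069. Without single libraries the median lay between -0.21 and 0.17. The oxygen-evolving subunit gene PSBO1 had 3196 and 3999 CPM in the number 2 libraries, against 5321 and 3810.1 CPM in the number 1 libraries, and the libraries overlapped. PSAD2, a photosystem I subunit gene, had 22.2 and 11.5 CPM in the number 2 libraries, against 29.9 and 82.1 CPM in the number 1 libraries (adjusted p = 0.375). PETE2, a plastocyanin gene, had 2420.4 and 2075 CPM in the number 2 libraries, against 1454 and 1314 CPM in the number 1 libraries (adjusted p = 0.77).

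The share of counts from the plastid genome was 31.6% and 27.3% in number 2, against 37.9% and 33.7% in number 1. The means were 29.4 ± 3.03% and 35.8 ± 2.95% (SD, n = 2 each), a difference of -6.32 percentage points. The SDs span otp90 and Col-0 within a number. The exact two-sided permutation test, which did not pair libraries by genotype, gave p = 0.333, the smallest that 2 against 2 libraries allow. The Wilson 95% intervals, which cover counting error only, were 31.5 to 31.7% and 27.2 to 27.4% in number 2, against 37.8 to 37.9% and 33.6 to 33.7% in number 1. Of 95 plastid genes tested 0 passed, 82 were negative and the median was -0.46. The mitochondrial share was 0.405% and 0.362% in number 2, against 0.515% and 0.521% in number 1 (exact permutation p = 0.333), and 0 of 36 mitochondrial genes passed, with a median of -0.57.

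Among 23 genes of chlorophyll synthesis, PORA fell and 0 rose, with a median of 0.009, and of -0.15 to 0.27 without single libraries. PORA, the light-sensitive protochlorophyllide oxidoreductase of dark-grown seedlings, had 1.14 and 0.546 CPM in the number 2 libraries, against 18.3 and 24.2 CPM in the number 1 libraries (log2 -4.55, SE 0.88, adjusted p = 0.0213), near the floor in number 2 and not called by voom. Its relatives did not pass: PORB had 243 and 382 CPM in the number 2 libraries, against 443 and 755 CPM in the number 1 libraries and PORC had 208 and 195 CPM in the number 2 libraries, against 126 and 62.8 CPM in the number 1 libraries, with adjusted p-values of 0.588 and 0.406. The chlorophyllide a oxygenase gene CAO, which makes chlorophyll b, had 16.5 and 25.1 CPM in the number 2 libraries, against 45.7 and 75.1 CPM in the number 1 libraries (adjusted p = 0.24).

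Genes of the Calvin cycle and photorespiration gave 0 calls among 28 tested and 0 at an unadjusted p under 0.05. The fitted log2 fold change was positive in 28 of 28, with a median of 0.62, but the pairs went different ways: the median was -0.29 in the otp90 pair and 1.72 in the Col-0 pair. Col-0 number 1 was the lowest library for 26 of the 28 genes (92.9%), against 26.3% of all genes tested. Without Col-0 number 1 the median was -0.05, without Col-0 number 2 it was 0.11, and without otp90 number 1 it was 1.42. FBA1, a plastid aldolase, had 2453 CPM in otp90 number 2 and 2450.1 CPM in Col-0 number 2, against 2431 CPM in otp90 number 1 and 554 CPM in Col-0 number 1. CP12-2, a small regulator of the cycle, had 286 CPM in otp90 number 2 and 403 CPM in Col-0 number 2, against 345 CPM in otp90 number 1 and 48.9 CPM in Col-0 number 1. In both genes Col-0 number 1 stood far below the other 3 libraries.

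Starch genes likewise had 0 calls among 31 tested. The median was 0.69, and in 22 (71%) both number 2 libraries lay above both number 1 libraries, against 21% of all genes tested. APL3, a large subunit of ADP-glucose pyrophosphorylase, had 46.1 and 24.0 CPM in the number 2 libraries, against 15.8 and 5.75 CPM in the number 1 libraries (adjusted p = 0.24). The debranching enzyme gene ISA2 had 79.6 and 65.0 CPM in the number 2 libraries, against 35.7 and 16.4 CPM in the number 1 libraries (adjusted p = 0.237). The beta-amylase gene BAM1 lay the other way, with 69.4 and 56.8 CPM in the number 2 libraries, against 137 and 107 CPM in the number 1 libraries (adjusted p = 0.559). Col-0 number 1 was the lowest library for 20 of the 31, and without it the median of the list was 0.34.

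Of 11 genes of sugar transport and sucrose, STP1 fell and 0 rose (median 0.16, but -0.57 without Col-0 number 1, -0.70 without Col-0 number 2 and 0.053 without otp90 number 1). STP1, a hexose and proton symporter of the plasma membrane that is repressed by sugar, had 13.6 and 20.2 CPM in the number 2 libraries, against 252 and 177 CPM in the number 1 libraries (log2 -3.65, SE 0.51, adjusted p = 0.00203). STP13 had 6.82 and 1.64 CPM in the number 2 libraries, against 14.1 and 42.3 CPM in the number 1 libraries (adjusted p = 0.244), and the phloem loader SUC2 had 85.9 and 135 CPM in the number 2 libraries, against 177 and 107 CPM in the number 1 libraries, with overlapping libraries. Of 16 nitrogen genes NIA1 fell and 0 rose. The median of the nitrogen list was 0.28, with -0.31 without Col-0 number 1, 0.90 without otp90 number 1, 0.11 without otp90 number 2 and 0.0049 without Col-0 number 2. NIA1, a nitrate reductase gene, had 29.6 and 39.3 CPM in the number 2 libraries, against 200.3 and 262 CPM in the number 1 libraries (log2 -2.75, SE 0.46, adjusted p = 0.00799), while NIA2 had 1592 and 1461 CPM in the number 2 libraries, against 2997 and 1372 CPM in the number 1 libraries. The nitrate transporter gene NRT1.1 had 233 and 174 CPM in the number 2 libraries, against 138 and 45.2 CPM in the number 1 libraries (adjusted p = 0.328).

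Clock genes were called in 3 cases, all lower, and 0.771% of all genes tested were called lower. Of 18 morning and day genes 11 were tested, and of these PRR7 and LNK4 fell and 0 rose. The median was -0.39, with -1.97 without Col-0 number 2, -1.41 without otp90 number 2 and -0.87 without Col-0 number 1. These fits were filtered anew and held 15, 15 and 13 members, so their medians cover other sets of genes than the 11. PRR7, a repressor of the morning genes, had 1.14 and 7.64 CPM in the number 2 libraries, against 29.9 and 82.5 CPM in the number 1 libraries (log2 -3.81, SE 0.60, adjusted p = 0.00503). LNK4, a relative of the coactivators LNK1 and LNK2, had 0.569 and 0 CPM in the number 2 libraries, against 19.9 and 14.4 CPM in the number 1 libraries (log2 -5.67, SE 1.096, adjusted p = 0.0213), rested on 1 count in number 2 and was not called by voom.

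LNK2 had 5.69 and 4.91 CPM in the number 2 libraries, against 22.4 and 37.8 CPM in the number 1 libraries, with no overlap and an adjusted p of 0.123. PRR5 had 13.1 and 9.28 CPM in the number 2 libraries, against 17.5 and 63.6 CPM in the number 1 libraries (adjusted p = 0.404). The 4 tested morning MYB genes were all lower in number 2 in the otp90 pair and higher in the Col-0 pair, CCA1 by log2 0.012 only. Their median log2 ratio was -0.74 in the otp90 pair and 0.73 in the Col-0 pair, and the difference was not tested. CCA1 had 26.7 and 24.0 CPM in the number 2 libraries, against 46.5 and 23.8 CPM in the number 1 libraries. RVE4 had 15.9 and 42.6 CPM in the number 2 libraries, against 28.3 and 20.5 CPM in the number 1 libraries. The libraries of both genes overlapped. LHY and PRR9 had too few counts to be tested: LHY had 2 and 3 counts in number 2 against 6 and 9 in number 1, and PRR9 had 0 in both number 2 libraries against 11 and 14 in number 1.

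Of 15 evening and photoperiod genes, GI fell and 0 rose. The median was -0.54, and it was 0.12 in the otp90 pair and -0.60 in the Col-0 pair. Without Col-0 number 1 it was 0.11, over the 17 members that passed the filter of that fit. GI, which stabilises the F-box protein ZTL and promotes flowering in long days, had 6.26 and 12.01 CPM in the number 2 libraries, against 32.4 and 67.3 CPM in the number 1 libraries (log2 -2.43, SE 0.53, adjusted p = 0.047). Its call was lost without otp90 number 2 (log2 -2.10) and, at -1.81, when Col-0 number 1 was left out. GI was called in 6 of 13 alternatives: it also missed the threshold in DESeq2 (adjusted p = 0.0685), voom (0.0738), with DESeq2 size factors (0.0535), with nuclear genes only (0.0743) and without the genotype term (0.0574). TOC1, an evening repressor of the morning genes, had 44.4 and 38.8 CPM in the number 2 libraries, against 65.7 and 61.6 CPM in the number 1 libraries, and CDF3 had 15.9 and 10.9 CPM in the number 2 libraries, against 38.2 and 36.5 CPM in the number 1 libraries, with adjusted p-values of 0.795 and 0.328. The evening complex genes ELF3 and LUX had log2 fold changes of -0.05 and 0.04 with overlapping libraries. BOA, a LUX relative, lay above, with 30.7 and 15.8 CPM in the number 2 libraries, against 7.48 and 8.62 CPM in the number 1 libraries (adjusted p = 0.531).

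**Figure D4:**
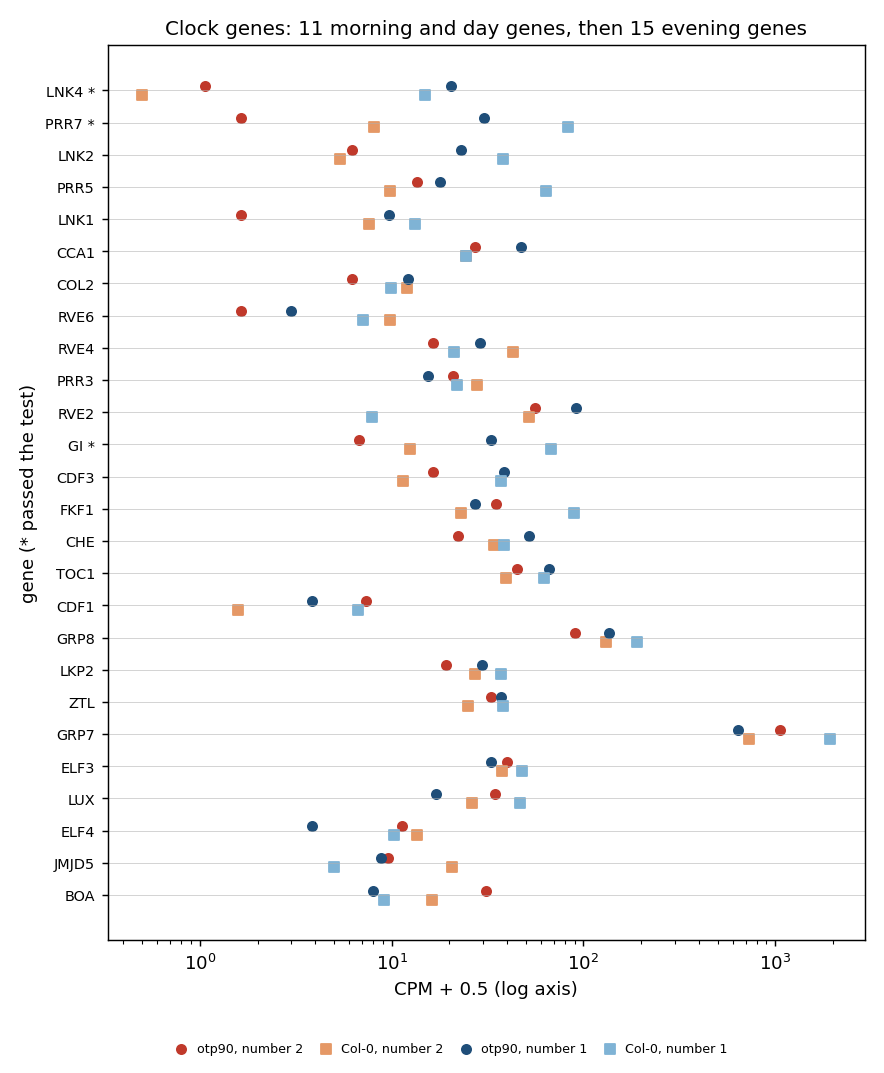
CPM plus 0.5 on a log axis in each library for the 26 tested clock genes, with number 2 in red and orange and number 1 in blue. LNK4, PRR7 and GI passed the test and carry an asterisk, and in 5 of the 15 evening genes the number 2 and number 1 libraries overlap. Both number 2 libraries lie below both number 1 libraries in 7 evening genes (46.7%) and above them in 3 (20%). Over all genes tested these shares are 20.5% and 21%.

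Of 29 photoreceptor and light signalling genes 0 passed, with 6 lower and 3 higher at an unadjusted p under 0.05. PIF5, a phytochrome-interacting factor that accumulates in the dark, had 26.7 and 16.9 CPM in the number 2 libraries, against 93.1 and 98.1 CPM in the number 1 libraries (log2 -2.16, SE 0.48, adjusted p = 0.0545). PHYA, the far-red photoreceptor whose transcript is repressed by light, had 83.6 and 160.5 CPM in the number 2 libraries, against 310.1 and 533 CPM in the number 1 libraries (log2 -1.81, SE 0.45, adjusted p = 0.0978). PIF4 had 13.6 and 15.8 CPM in the number 2 libraries, against 39.1 and 58.7 CPM in the number 1 libraries. In these 3 genes both number 2 libraries lay below both number 1 libraries. That held for 14 of the 29 (48.3%), against 20.5% of all genes tested. In 9 of the 29 (31.0%) both lay above, against 21% of all genes tested. SPA4, a partner of COP1, had 22.7 and 27.8 CPM in the number 2 libraries, against 5.82 and 2.05 CPM in the number 1 libraries, and HY5, a bZIP factor that promotes light responses, had 21.04 and 14.7 CPM in the number 2 libraries, against 8.31 and 1.23 CPM in the number 1 libraries, with adjusted p-values of 0.117 and 0.311. DESeq2 called PIF5 and PHYA, with adjusted p-values of 0.0458 and 0.0352. COL5 and BBX28, B-box proteins outside the lists, fell, with 3.98 and 4.37 CPM in the number 2 libraries, against 81.5 and 75.1 CPM in the number 1 libraries for COL5 and 0 and 1.64 CPM in the number 2 libraries, against 40.7 and 39.0 CPM in the number 1 libraries for BBX28. The call of BBX28 was lost in voom.

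Of 23 rapid touch and stress genes 18 were tested. Of these 4 fell, against 0.771% of all genes tested, 0 rose, and 18 of 18 had negative log2 fold changes. In 16 (88.9%) both number 2 libraries lay below both number 1 libraries, against 20.5% of all genes tested. The median was -2.31, with -2.39 in the otp90 pair and -1.68 in the Col-0 pair. TCH3, a calmodulin-like protein induced by touch, had 34.7 and 27.3 CPM in the number 2 libraries, against 155 and 178 CPM in the number 1 libraries (log2 -2.43, SE 0.47, adjusted p = 0.0213). CAF1A, a subunit of the deadenylase that removes poly(A) tails, had 18.8 and 10.4 CPM in the number 2 libraries, against 216 and 65.7 CPM in the number 1 libraries (log2 -3.11, SE 0.51, adjusted p = 0.00616).

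WRKY40, a stress factor that also acts in abscisic acid signalling, had 0.569 and 0 CPM in the number 2 libraries, against 19.9 and 14.4 CPM in the number 1 libraries (log2 -5.67, SE 1.096, adjusted p = 0.0213), rested on 1 count in number 2 and was not called by voom (adjusted p = 0.116). Its counts happened to equal those of LNK4 in all 4 libraries. WRKY53, a factor of defence and leaf senescence, had 1.71 and 1.64 CPM in the number 2 libraries, against 18.3 and 27.1 CPM in the number 1 libraries (log2 -3.70, SE 0.78, adjusted p = 0.0369), and its call was lost without Col-0 number 1, in voom (adjusted p = 0.337) and with nuclear genes only (0.0643). TCH4, a xyloglucan-modifying wall enzyme, had 3.98 and 0 CPM in the number 2 libraries, against 26.6 and 26.3 CPM in the number 1 libraries (adjusted p = 0.0674), and ZAT10, a zinc finger repressor, had 11.4 and 2.18 CPM in the number 2 libraries, against 53.2 and 23.0 CPM in the number 1 libraries (adjusted p = 0.0655). Outside the lists, the ethylene response factor ERF2 fell with 4.55 and 1.09 CPM in the number 2 libraries, against 35.7 and 21.3 CPM in the number 1 libraries, a call lost without Col-0 number 2, in voom, with nuclear genes only and without the genotype term. EBF2, an F-box protein that removes the ethylene factor EIN3, fell with 28.4 and 20.2 CPM in the number 2 libraries, against 211 and 110.0 CPM in the number 1 libraries.

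Among the other stress lists, only the senescence list held a called gene, and 0.804% of all genes tested were called in either direction. Of 9 senescence genes SAG21 fell and 0 rose (median -1.32), with 12.5 and 9.82 CPM in the number 2 libraries, against 139.6 and 280.4 CPM in the number 1 libraries (log2 -4.15, SE 0.54, adjusted p = 0.00124). Of 16 cold and dehydration genes 0 passed, with 4 lower and 1 higher at an unadjusted p under 0.05. The dehydrin gene RAB18 had 2.84 and 2.73 CPM in the number 2 libraries, against 16.6 and 24.6 CPM in the number 1 libraries (adjusted p = 0.118), and RD26, a dehydration-responsive NAC factor outside the list, fell with 2.27 and 1.09 CPM in the number 2 libraries, against 29.1 and 68.6 CPM in the number 1 libraries (log2 -4.71, SE 0.72, adjusted p = 0.00424), a call lost in voom. RD29A had 109.8 CPM in otp90 number 2 and 90.06 CPM in Col-0 number 2, against 88.1 CPM in otp90 number 1 and 859 CPM in Col-0 number 1, high in Col-0 number 1 alone.

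Of 15 salicylic acid genes 0 passed, with 5 lower and 0 higher at an unadjusted p under 0.05 (median -0.92, and -0.53 without Col-0 number 1). CBP60G, an activator of salicylic acid synthesis, had 3.98 and 0.546 CPM in the number 2 libraries, against 12.5 and 34.9 CPM in the number 1 libraries, and its partner SARD1 had 2.84 and 2.18 CPM in the number 2 libraries, against 14.1 and 18.1 CPM in the number 1 libraries, with adjusted p-values of 0.158 and 0.196. Of 19 jasmonate genes 0 passed (1 lower and 0 higher at an unadjusted p under 0.05), and JAZ1, a repressor of the pathway, had 1.14 and 1.09 CPM in the number 2 libraries, against 17.5 and 9.44 CPM in the number 1 libraries (adjusted p = 0.137). Of 6 heat shock genes 0 passed (1 lower and 2 higher unadjusted), and HSP90.1 had 17.1 and 26.7 CPM in the number 2 libraries, against 9.14 and 2.05 CPM in the number 1 libraries (adjusted p = 0.336). Of 8 redox enzyme genes 0 passed (2 lower and 1 higher unadjusted), and APX1, a cytosolic ascorbate peroxidase, had 457 and 384 CPM in the number 2 libraries, against 189 and 157 CPM in the number 1 libraries (adjusted p = 0.312).

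Among flavonoid genes, which make UV-absorbing flavonols and anthocyanins, 13 of 26 had enough counts to be tested. Of these 1 rose, against 0.0335% of all genes tested, 0 fell, and 10 were higher at an unadjusted p under 0.05. In 12 (92.3%) both number 2 libraries lay above both number 1 libraries, against 21% of all genes tested. The median was 1.85, with 1.34 in the otp90 pair and 1.93 in the Col-0 pair. FLS1, which makes flavonols, had 42.7 and 46.9 CPM in the number 2 libraries, against 4.99 and 6.57 CPM in the number 1 libraries (log2 2.93, SE 0.57, adjusted p = 0.0219). Limma voom did not call FLS1 (adjusted p = 0.0635). CHS, the entry enzyme chalcone synthase, had 155 and 235 CPM in the number 2 libraries, against 55.7 and 21.8 CPM in the number 1 libraries (log2 2.45, SE 0.55, adjusted p = 0.0539), and CHIL, a chalcone isomerase-like protein, had 39.2 and 22.4 CPM in the number 2 libraries, against 9.14 and 1.23 CPM in the number 1 libraries (log2 2.93, SE 0.70, adjusted p = 0.0813).

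The flavonol glycosyltransferase gene UGT89C1 had 65.4 and 63.3 CPM in the number 2 libraries, against 18.3 and 11.5 CPM in the number 1 libraries (adjusted p = 0.0674), and MYB111, an activator of flavonol genes, had 18.8 and 6.55 CPM in the number 2 libraries, against 4.99 and 0.821 CPM in the number 1 libraries (adjusted p = 0.361). These genes did not overlap between the numbers but missed the threshold. At the start of the phenylpropanoid pathway PAL1 had 215 and 180.1 CPM in the number 2 libraries, against 99.7 and 62.4 CPM in the number 1 libraries and PAL2 had 16.5 and 43.1 CPM in the number 2 libraries, against 35.7 and 31.6 CPM in the number 1 libraries, and the libraries of PAL2 overlapped. Col-0 number 1 was the lowest library for 10 of the 13, and without Col-0 number 1 the median was 1.34.

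Outside the lists 3 more genes rose. AT1G11700, a DUF584 protein annotated as a senescence regulator, had 113 and 95.0 CPM in the number 2 libraries, against 14.96 and 7.39 CPM in the number 1 libraries (log2 3.29, SE 0.52, adjusted p = 0.00467). RGL2, a DELLA repressor of gibberellin responses known from seed germination, had 27.9 and 37.1 CPM in the number 2 libraries, against 1.66 and 6.16 CPM in the number 1 libraries (log2 3.08, SE 0.67, adjusted p = 0.0491). TLL1, a triacylglycerol lipase-like protein, had 130.2 and 146 CPM in the number 2 libraries, against 35.7 and 19.3 CPM in the number 1 libraries (log2 2.39, SE 0.49, adjusted p = 0.0319). In the 4 rising genes each number 2 library exceeded both number 1 libraries. RGL2 missed the threshold in limma voom (adjusted p = 0.165), with DESeq2 size factors (0.0584), with nuclear genes only (0.0828), without the genotype term (0.0574) and with rRNA models kept, so it was called in 8 of 13 alternatives. TLL1 missed it with nuclear genes only (0.0629).

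Of 20 glucosinolate and sulfur genes 0 passed, with 0 lower and 9 higher at an unadjusted p under 0.05, and 19 were positive (median 1.08). Within the pairs the median was 0.26 in otp90 and 1.70 in Col-0, and Col-0 number 1 was the lowest library for 17 of the 20. The median was 0.37 without Col-0 number 1, 0.67 without otp90 number 2 and 1.87 without otp90 number 1. MYB28, the main activator of the aliphatic branch, had 80.8 and 77.0 CPM in the number 2 libraries, against 39.1 and 21.8 CPM in the number 1 libraries, and MYB29, its relative, had 21.04 and 12.6 CPM in the number 2 libraries, against 3.32 and 4.52 CPM in the number 1 libraries, with adjusted p-values of 0.283 and 0.374. Of 11 cell cycle and expansion genes 0 passed (0 lower and 1 higher unadjusted), and PCNA1, the sliding clamp of DNA replication, had 29.0 and 25.7 CPM in the number 2 libraries, against 7.48 and 7.80 CPM in the number 1 libraries (adjusted p = 0.286).

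Further called genes stood outside the lists. BXL1, a beta-xylosidase of the cell wall, had 18.1985 and 29.5 CPM in the number 2 libraries, against 509 and 294 CPM in the number 1 libraries (log2 -4.04, SE 0.54, adjusted p = 0.00144). HSPRO2, an ortholog of a sugar beet nematode resistance gene, had 7.96 and 3.27 CPM in the number 2 libraries, against 194 and 165 CPM in the number 1 libraries (log2 -5.05, SE 0.56, adjusted p = 0.000393). J8, a small chloroplast DnaJ protein, had 6.82 and 13.1 CPM in the number 2 libraries, against 141 and 310.4 CPM in the number 1 libraries (log2 -4.47, SE 0.52, adjusted p = 0.000493), and J11 had 0 and 1.64 CPM in the number 2 libraries, against 32.4 and 45.6 CPM in the number 1 libraries, a call lost in voom. Over all 79 tested genes annotated with a DnaJ domain, 2 fell and the median was -0.017. CNI1, a ubiquitin ligase of the carbon and nitrogen response, had 4.55 and 2.73 CPM in the number 2 libraries, against 63.2 and 58.7 CPM in the number 1 libraries (log2 -4.06, SE 0.58, adjusted p = 0.00237). In all 5 genes both genotypes showed the same direction.

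The lists held 31 of the 92 lower genes and 1 of the 4 higher ones, and 64 called genes stood outside them. The lists comprised 488 loci, of which 378 were tested; the 110 left untested had too few counts and enter no count or median. The called lower genes had a median model length of 1389 bases and a median of 326 counts over the 4 libraries, against 1673 bases and 127 counts over all genes tested.

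**Figure D5:**
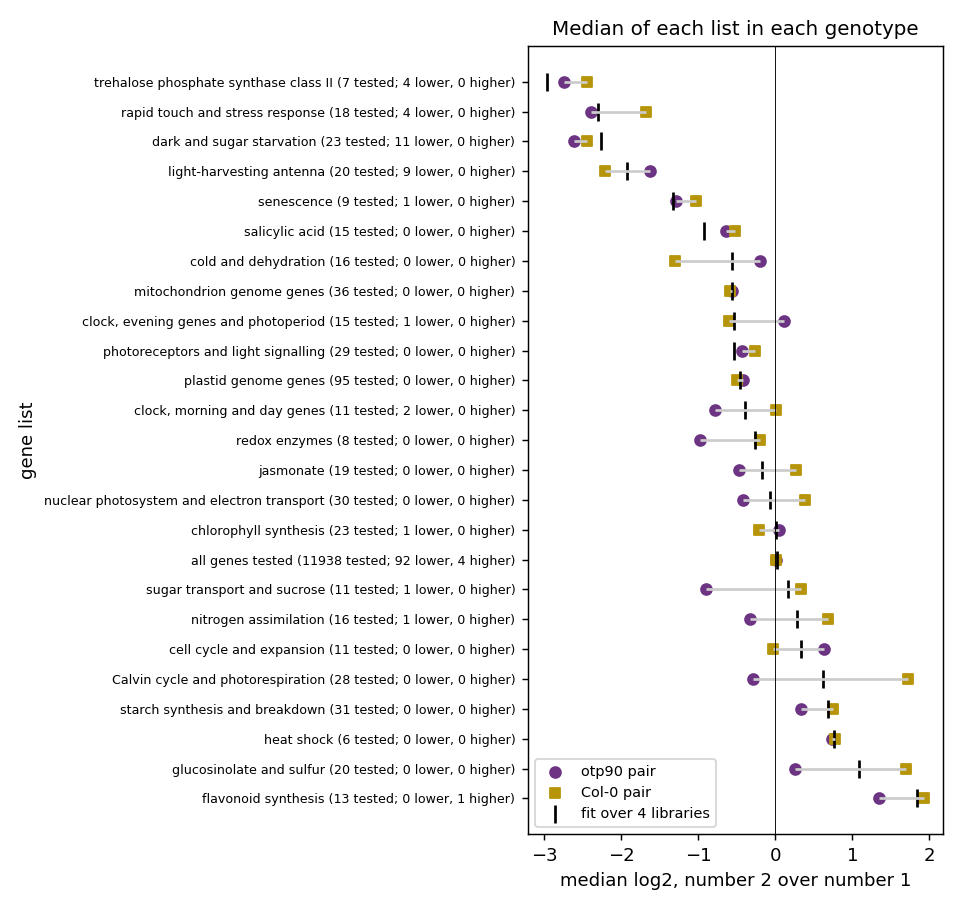
Median log2 ratio of number 2 over number 1 for each list with at least 3 tested genes, in the otp90 pair (circle), the Col-0 pair (square) and the fit over 4 libraries (bar), with the tested and called genes in brackets. Starvation, class II synthase, touch and antenna lists lie left of -1.6 in both pairs and the flavonoid list right of 1.3, while the Calvin cycle list lies on either side of 0.

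Genes also differed in opposite directions between the genotypes. With at least 20 counts in the higher library of each pair, 227 genes had opposite log2 ratios larger than 1 in size, of which 104 were higher and 123 lower in number 2 in the otp90 pair. AT5G50140, an ankyrin repeat protein, had 9.10 CPM in otp90 number 2 and 122 CPM in Col-0 number 2, against 119.7 CPM in otp90 number 1 and 11.5 CPM in Col-0 number 1. NRT2.2, a high-affinity nitrate transporter, had 2.84 CPM in otp90 number 2 and 16.4 CPM in Col-0 number 2, against 24.9 CPM in otp90 number 1 and 2.05 CPM in Col-0 number 1. In both genes the otp90 pair was lower and the Col-0 pair higher in number 2, and so it was in FLA13, AT4G07800, BAG5 and AT3G42420.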

How the data were processed

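Read counts for each gene model, not normalized, were deposited by the authors. Per the file headers the counter was sam2pkm, run after reads with tied best and second alignments had been discarded (79.9 to 87.0% of mapped reads). Genes with a near-identical copy are thus undercounted. The submitters' processing notes name the build TAIR10. Aligner and strand setting are not given in the sources used here, and overlapping or antisense genes may share reads. Gene names came by locus from the TAIR10.1 annotation (32835 of 33602 models), so no coordinates are given.

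Number 2 and number 1 were compared with edgeR 4.0.16 in R 4.3.3, with genotype as a term. The 15 rRNA models were left out, genes were kept by filterByExpr, and libraries were scaled by TMM. The two-sided quasi-likelihood test was used, with Benjamini-Hochberg adjustment over all genes tested and calls at 0.05. SE is the size of the log2 fold change over the root of F. Ratios within a genotype use CPM with a prior count of 2, and with 1 library a side have no test. Genes with 0 counts in number 2 were set to a floor of 3 counts over the group. Intervals and floors cover counting error only. DESeq2 1.42.0, limma 3.58.1 (voom) and other scalings, filters and left-out libraries were alternatives.

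The members, gene lists and named genes were chosen with earlier results of these data known. The rule names the 12 largest falls and up to 12 rises among called genes, up to 6 called or otherwise 2 members per list by p, 5 genes known before, 6 genes with opposite pairs and the 6 called genes with the highest mean CPM. Other genes named were chosen after their values were seen. Promoter and protein sequences were not analysed here.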

Additional observations from a re-analysis of the deposited data

Results flagged for a closer look

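Medians of 9 lists had opposite signs in the 2 genotypes, as log2 of number 2 over number 1; the differences between the pairs were not tested, since each pair has 1 library a side. In the otp90 pair and the Col-0 pair the median was -0.29 and 1.72 for the Calvin cycle and photorespiration, -0.90 and 0.33 for sugar transport and sucrose, and -0.32 and 0.68 for nitrogen assimilation. It was -0.42 and 0.38 for the nuclear photosystem and electron transport genes, -0.48 and 0.27 for jasmonate, and -0.79 and 0.012 for morning and day clock genes. It was 0.12 and -0.60 for evening clock genes, 0.046 and -0.22 for chlorophyll synthesis, and 0.63 and -0.031 for cell cycle and expansion.

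Single genes named in the text did the same, again without a test of the difference. The log2 ratio in the otp90 pair and the Col-0 pair was -3.57 and 3.28 for AT5G50140, -3.58 and 2.77 for FLA13, -2.73 and 3.64 for AT4G07800, -2.89 and 2.68 for BAG5, -2.55 and 3.52 for AT3G42420 and -2.72 and 2.47 for NRT2.2. These 6 genes were selected for that opposition. For CP12-2 it was -0.27 and 3.02, for the lipoxygenase LOX4 -2.80 and 0.70, for the root factor SCR 1.74 and -1.32, and for the flowering gene SOC1 (AGL20) 0.24 and -0.15.

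Among the rRNA models left out of the tests, the mitochondrial 5S rRNA gene rrn5 had 13796 and 11674 counts in number 2, against 2983 and 5596 in number 1. Relative to all other counts its log2 ratio was 1.86 in the otp90 pair and 1.60 in the Col-0 pair. The other mitochondrial rRNA models, ATMG00020 and ATMG01390, had log2 ratios of -0.88 and -0.73 in the otp90 pair and -0.28 and -1.27 in the Col-0 pair.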

How the results depend on the processing

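No paired analysis was possible by replicate number, because the replicate number is the quantity compared and cannot also be a block. Genotype took that place as a term, so the main test compared number 2 with number 1 within each genotype. The 92 lower and 4 higher genes became 201 and 52 with edgeR's likelihood ratio test and 165 and 49 with no low-count filter. Higher genes were 7 with DESeq2, 2 with nuclear genes only, 7 with the stricter filter and 8 without the genotype term; lower genes were 92, 71, 108 and 105 in these fits. Lower genes were 65 with voom. Leaving out 1 library, which also drops the genotype term, gave 149 to 248 lower and 29 to 263 higher genes: 263 higher without otp90 replicate 1, 29 without otp90 replicate 2, and 32 and 54 when Col-0 replicate 1 or 2 was left out. In these fits the 2 libraries of 1 number alone set the spread, and the lone library is assumed to vary like them. Each was filtered anew, so the tested members of a list can differ from those of the main fit. Of 96 calls, 51 stood in each of the 13 alternatives, 45 were lost in at least 1, and 62 stood under DESeq2, voom and the likelihood ratio test together.

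The plastid share difference ranged from -8.46 to -4.17 points and the mitochondrial from -0.156 to -0.113 points without single libraries; with rRNA models kept they were -5.29 and -1.81 points. List medians kept their sign under DESeq2 size factors in 25 of 25 cases. The sign changed in 6 without Col-0 replicate 1, in 6 without otp90 replicate 2, in 2 each when otp90 replicate 1 or Col-0 replicate 2 was left out and with no low-count filter, and in 1 of 23 with nuclear genes only. AT5G50140 (log2 -0.042) was 2.50 without otp90 replicate 1 and -2.79 when Col-0 replicate 2 was left out. The smallest changes called by the quasi-likelihood test were log2 -2.27 and 2.39; DESeq2 and the likelihood ratio test also called PIF5 and PHYA, at -2.17 and -1.82 in DESeq2.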
